A study of Mus musculus with 8 samples.

Results

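Bile acid synthesis and transport in the mouse liver was described by 10 genes: the sterol hydroxylases Cyp7a1, Cyp8b1, Cyp27a1 and Cyp7b1, the conjugating enzyme Baat, the nuclear receptors Nr1h4 (FXR) and Nr0b2 (SHP), the canalicular transporters Abcb11 (BSEP) and Abcb4 (MDR2), and the basolateral uptake carrier Slc10a1 (NTCP). They were taken from the 49671 genes of the count table by matching each symbol to its Ensembl identifier in a GRCm38 annotation, and all 10 passed the filter on low counts that left 13117 genes for testing. Liver RNA was sequenced from 2 WT and 2 NT-KO samples of each sex. NT-KO mice were homozygous for a deletion in Lbr, the gene of the lamin B receptor. The deletion takes away the canonical start codon and part of intron 1 and is predicted to leave a protein without its N-terminal domains. The sterol reductase part is predicted to remain. In the study, western blot and mass spectrometry favoured a downstream start site, though other sites were not excluded. Its discussion also names a severe reduction of the protein. The mutation was made with CRISPR/Cas9, came from 1 founder, was bred from heterozygous crosses and was present in every cell of the animal rather than in the liver alone. All animals were labelled C57BL/6 (C57BL/6N in the study's methods) and post weaning, with no exact age. The labels do not state that replicates came from separate animals, so p-values measure the spread between these samples.

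Hepatocytes make bile acids from cholesterol. In the classic route CYP7A1 hydroxylates the sterol ring in the rate-limiting step and CYP8B1 directs the product to cholic acid, whereas in the alternative route CYP27A1 first oxidises the side chain and CYP7B1 then hydroxylates the ring of the resulting oxysterol. BAAT joins the product to taurine or glycine, ABCB11 pumps the conjugate into the canaliculus, ABCB4 supplies the phosphatidylcholine that shields the duct, and SLC10A1 recovers bile acids from portal blood. Bile acids bind FXR, which raises Nr0b2 and Abcb11 transcription, and SHP in turn represses Cyp7a1 and Cyp8b1. Feeding and the circadian clock also act on the classic genes.

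The promoters of Nr0b2 and Cyp8b1 are shown because these genes encode SHP and a hydroxylase that it represses, and because, of the members with a window, they had the highest ratios of the highest to the lowest male library in CPM. The sequences are RefSeq windows on GRCm38.p6, 5′ to 3′ on the gene's strand, and end at the base before the start site. Capitals mark the only matches to 7 motifs searched on both strands of the whole window of 300 bases.
Nr0b2, chr4:133553126-133553375, plus strand: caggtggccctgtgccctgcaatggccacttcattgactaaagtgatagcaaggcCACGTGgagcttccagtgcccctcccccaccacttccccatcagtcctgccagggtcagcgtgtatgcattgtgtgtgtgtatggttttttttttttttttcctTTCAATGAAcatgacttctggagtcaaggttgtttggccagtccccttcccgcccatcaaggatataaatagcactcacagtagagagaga
Cyp8b1, chr9:121916306-121916555, minus strand: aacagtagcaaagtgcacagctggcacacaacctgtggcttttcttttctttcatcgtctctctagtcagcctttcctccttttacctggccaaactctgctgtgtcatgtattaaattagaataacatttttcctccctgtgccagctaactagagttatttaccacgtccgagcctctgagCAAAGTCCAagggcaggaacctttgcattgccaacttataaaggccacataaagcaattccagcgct
In Nr0b2 the capitals are an E-box (CACGTG, first base 56), which 7.15% of the 32851 promoter windows of this length hold, and a STAT5-type match (TTCNNNGAA, first base 160), which 8.3% hold. In Cyp8b1 they are an HNF4-type match (CAAAGTCCA, first base 184), which 0.475% of windows hold. Of the 10 members, 7 had a window. Nr1h4 held the HNF1 element GTTAAT (7.1% of windows), and the first of the pair of Slc10a1 windows held a STAT5-type match. No window held an exact IR1, the inverted repeat of AGGTCA spaced by a single base that FXR is known for (0.00913% of windows). Nor did any hold the exact letters CAAGGTC of an LRH-1 element (3.96%) or TTATGTAA of a D-box (0.938%). Only exact letters were searched, so a variant of any of these elements, the IR1 and the LRH-1 element included, would have been missed. These matches describe letters in a window, and binding was not measured.

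The table held 45020377 to 64396291 counts per library. Values below are CPM (counts scaled to library size) after TMM scaling, and a call means a false discovery rate (FDR) of at most 0.05 in edgeR's quasi-likelihood test over all 13117 genes. Markers of the hepatocyte (7 of 7 detected) summed to 76309 to 112830 CPM in every library. Lbr itself was at 6.54 to 7.99 CPM in the 4 WT libraries and at 12.8 to 14.04 CPM in the 4 NT-KO libraries, where counts over the whole gene do not test the deletion. Of the Lbr exon sequence, 10.7% overlaps Gm26004 and the opposite-strand gene Dnah14, and the strand setting of the counting was not given. X- and Y-linked markers matched the sex labels. As these are bulk samples, fewer cells of a type and less RNA per cell cannot be told apart.

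All members were well measured. Their mean levels ran from 51.6 to 778 CPM, against a median of 12.9 CPM over the tested genes. Per kilobase of exon, the order of mean level over the 8 libraries was Slc10a1, Cyp27a1, Baat, Cyp7b1, Cyp8b1, Nr1h4, Abcb11, Cyp7a1, Nr0b2 and Abcb4. Slc10a1 led with 354 ± 69.8 CPM per kb (SD, n = 8), and Cyp27a1 at 240.0 ± 31.5 lay below it in 7 of 8 libraries. Baat at 134 ± 18.5 lay below Cyp27a1 in all 8. The middle of the order was not resolved: Cyp8b1, Nr1h4 and Abcb11, with means of 79.5, 73.4 and 65.7 CPM per kb, were each below the preceding gene in only 3 or 4 of 8 libraries. Cyp7a1 and Nr0b2 at 46.7 and 45.6 CPM per kb also changed places in 4 of 8 libraries. Abcb4 had the lowest mean, 15.4 ± 3.15 CPM per kb, and lay below Nr0b2 in 7 of 8 libraries. Cyp7b1 had no single place in the order, because its level per kb ran from 13.99 in a female to 348 in a male library.

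**Figure D1:**
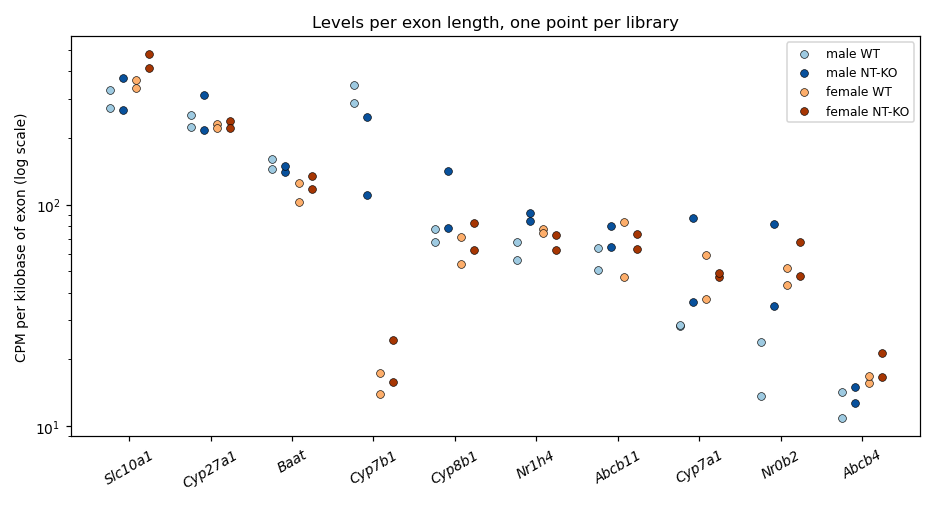
Level of each gene as CPM per kilobase of exon (vertical axis, log scale) in each of the 8 libraries, with 1 point per library and colours for the 4 groups. Cyp7b1 separates by sex, from 13.99 to 348 CPM per kb, whereas the spreads of Cyp8b1, Nr1h4 and Abcb11 overlap.

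Cyp7b1, the oxysterol 7α-hydroxylase of the alternative route (ENSMUSG00000039519, chr3:18071950-18243338), was the 1 member called between the sexes. It was at 622 and 754 CPM in WT males, 536 and 240.3 CPM in NT-KO males, 37.8 and 30.3 CPM in WT females, and 34.2 and 53.2 CPM in NT-KO females. All 4 male libraries were above all 4 female libraries, and the lowest male library, NT-KO replicate 2, stood apart from the other males. Over both genotypes the level in females was lower by a log2 fold change of -3.74 (SE 0.29, 95% interval -4.42 to -3.07, FDR 0.000226, edgeR's quasi-likelihood test). The difference was -4.34 (SE 0.43, FDR 0.00149) between the WT groups and -3.15 (SE 0.41, FDR 0.00593) between the NT-KO groups in the same edgeR fit. Of all tested genes, 7.84% were called between the sexes, 3.72% lower and 4.12% higher in females, and 6.44% were called within WT and 1.86% within NT-KO. With 10 members, 1 call lower in females is no result about the list as a whole.

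The other 9 members did not pass that test, with values on both sides of 0. Baat, which conjugates bile acids (ENSMUSG00000039653, chr4:49489422-49506557), was at 280.0 and 312 CPM in WT males, 272 and 289 CPM in NT-KO males, 198 and 243 CPM in WT females, and 229 and 262 CPM in NT-KO females. Every female library was below every male library, with a log2 fold change of -0.31 (SE 0.13, FDR 0.175 in edgeR). Abcb4, the phosphatidylcholine floppase (ENSMUSG00000042476, chr5:8893717-8959231), was at 134 and 102 CPM in WT males, 141 and 120 CPM in NT-KO males, 147 and 158 CPM in WT females, and 156 and 202 CPM in NT-KO females. Here the females lay above the males without overlap, at a log2 fold change of 0.41 (SE 0.15, FDR 0.122 in edgeR). When libraries were scaled by their size alone Abcb4 reached 0.54 (FDR 0.0462), with the median of all genes then at 0.12, and over the alternatives its FDR ran from 0.0462 to 0.546. Counted over the list, 1 member was higher and 2 were lower in females without overlap of the 4 and 4 libraries, where 8.5% and 7.6% of all genes were. At an unadjusted p under 0.05 there were 1 higher and 2 lower, the same 3 genes, beside 13.8% and 13.1% of all genes. The median log2 fold change of the members was 0.01, beside -0.01 over all tested genes.

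**Figure D2:**
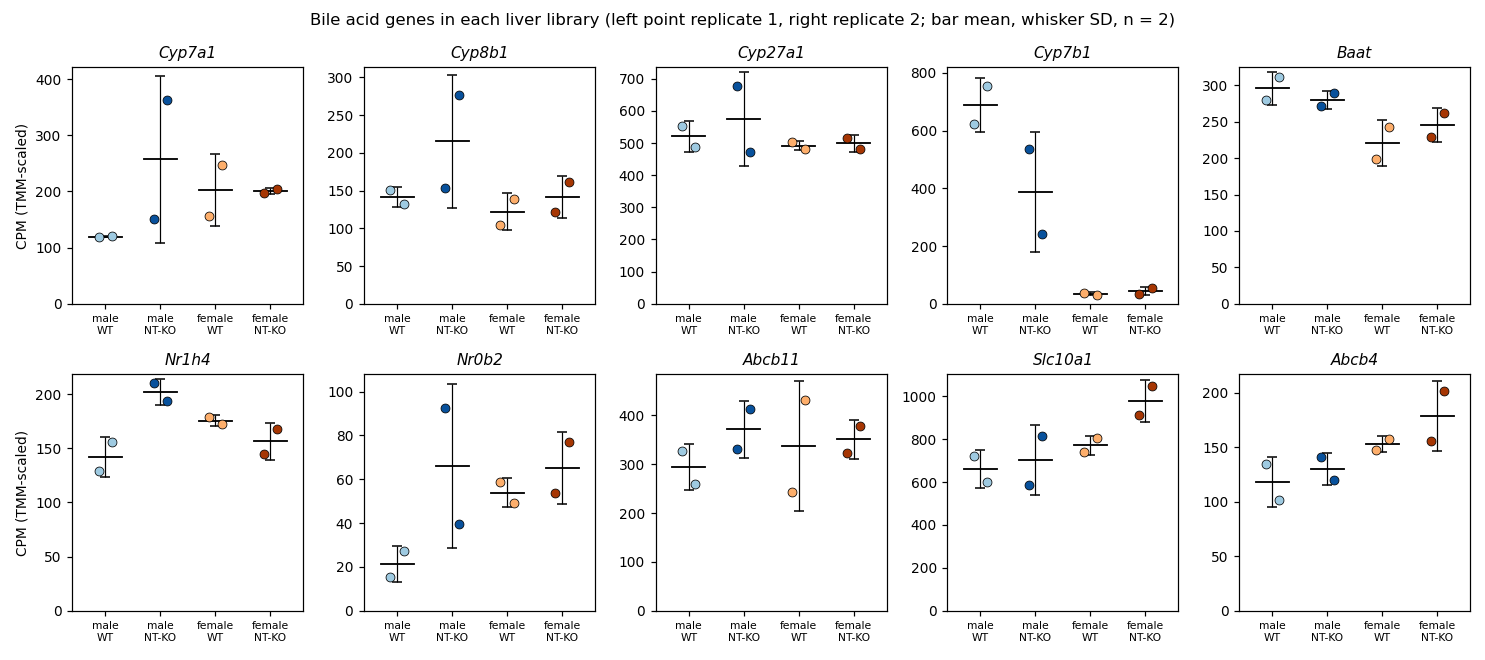
CPM (vertical axis, from 0) of the 10 genes in each library of the 4 groups, where points are libraries, bars the mean and whiskers the SD of 2. Cyp7b1 lies at 240.3 to 754 CPM in males and 30.3 to 53.2 CPM in females, and the male NT-KO pair is spread widely for Cyp7a1, Cyp8b1, Cyp7b1 and Nr0b2.

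No member was called between NT-KO and WT in males, in females, over both sexes, or in the difference between the sexes. Among all tested genes these comparisons called 0.0152%, 0.00762%, 0.0152% and 0.0152%, so a count of 0 among 10 does not set the members apart from the background. At an unadjusted p under 0.05 there were 3 members in males, all higher in NT-KO (Cyp7a1, Nr1h4 and Nr0b2), 0 in females, 1 over both sexes and 2 in the difference, beside 11.5%, 1.55%, 5.42% and 7.2% of all genes. edgeR's likelihood ratio test and DESeq2 each called 1 member in males, Nr0b2, and 0 in females, over both sexes or in the difference. The former called 1.94%, 0.0839%, 0.389% and 0.351% of all genes in these comparisons, and the latter 2.35%, 0.0381%, 0.473% and 0.473%. The study's methods name edgeR's glmFit, the kind of fit under the likelihood ratio test here, and not the quasi-likelihood fit. In males 5 members were higher and 1 was lower without overlap of the 2 and 2 libraries, where 19.6% and 19.2% of all genes were. In females 1 was higher and 1 lower, where 12.2% and 14.2% were. The median log2 fold change of the members was 0.24 in males and 0.18 in females, beside 0.01 and 0.0012 over all tested genes. The smallest two-sided p of an exact permutation test over 2 and 2 libraries is 0.33, so single genes rested on the fit across all genes.

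Of the receptors, Nr0b2 had the largest genotype value of the 10 genes in males with all libraries in the fit, though not in females or without male NT-KO replicate 1. Nr0b2, the FXR target that encodes SHP (ENSMUSG00000037583, chr4:133553376-133556536), was at 15.4 and 27.3 CPM in WT males, 92.4 and 39.5 CPM in NT-KO males, 58.6 and 49.1 CPM in WT females, and 53.7 and 76.8 CPM in NT-KO females. The pair of male WT libraries was the lowest of the 8, and the male NT-KO pair lay on either side of the females' range. The log2 fold change was 1.63 in males (SE 0.42, 95% interval 0.67 to 2.59, FDR 0.242 in edgeR's quasi-likelihood test). The FDR of this value was 0.0159 in edgeR's likelihood ratio test and 0.00183 in DESeq2, and ran from 1.25e-10, with no filter on low counts, to 0.484 over all alternatives. In females the log2 fold change was 0.28 (95% interval -0.66 to 1.21, FDR 1), and the difference between the sexes was -1.35 (95% interval -2.68 to -0.02, FDR 0.688 in edgeR). Over both sexes the log2 fold change was 0.95 (SE 0.29, FDR 0.807 in edgeR). Females against males gave 0.66 (FDR 0.189) over both genotypes, 1.34 (FDR 0.0900) in WT and -0.02 (FDR 0.996) in NT-KO in edgeR. Over both genotypes the value was 1.03 without male NT-KO replicate 1. The FDR over the alternatives ran from 0.000513, with no filter on low counts, to the 0.996 of NT-KO alone. Without male NT-KO replicate 1, the highest library, the male value fell to 0.89, and without replicate 2 it was 2.11.

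Nr1h4, the bile acid receptor FXR (ENSMUSG00000047638, chr10:89454234-89533585), was at 129 and 155 CPM in WT males, 210.3 and 194 CPM in NT-KO males, 179 and 172 CPM in WT females, and 144 and 168 CPM in NT-KO females. It was the 1 member with both NT-KO libraries above both WT libraries in males and below them in females, a pattern that 3.75% of all tested genes had. The log2 fold change was 0.51 in males (SE 0.18, 95% interval 0.10 to 0.91, FDR 0.344) and -0.17 in females (95% interval -0.57 to 0.24, FDR 1) in edgeR. The difference between the sexes was -0.67 (SE 0.25, 95% interval -1.24 to -0.10) and did not pass over all genes (FDR 0.656 in edgeR's quasi-likelihood test).

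Of the classic route, Cyp7a1 (ENSMUSG00000028240, chr4:6265612-6275633), the rate-limiting hydroxylase, was at 119 and 120 CPM in WT males, 152 and 362 CPM in NT-KO males, 156 and 248 CPM in WT females, and 197 and 205 CPM in NT-KO females. Male NT-KO replicate 2 had the highest level of the 8 libraries, and replicate 1 lay within the range of the other groups. The log2 fold change in males was 1.11 (SE 0.38, 95% interval 0.23 to 1.99, FDR 0.344 in edgeR's quasi-likelihood test). It was 0.34 without replicate 2 and 1.60 without replicate 1. In females it was -0.01, with a 95% interval of -0.88 to 0.86, and the difference between the sexes was -1.11 (FDR 0.696 in edgeR).

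Cyp8b1, the sterol 12α-hydroxylase (ENSMUSG00000050445, chr9:121914356-121916305), was at 151 and 132 CPM in WT males, 153 and 277 CPM in NT-KO males, 105 and 139 CPM in WT females, and 122 and 161 CPM in NT-KO females. Again male NT-KO replicate 2 was the highest library, while replicate 1 exceeded the upper male WT library by a few CPM. The log2 fold change in males was 0.60 (95% interval -0.08 to 1.29, FDR 0.478 in edgeR) and 0.11 without replicate 2. In females it was 0.21 (95% interval -0.47 to 0.90, FDR 1).

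Of the alternative route, Cyp7b1 was lower in both male NT-KO libraries than in both male WT libraries, with a log2 fold change of -0.83 (SE 0.38, 95% interval -1.69 to 0.04, FDR 0.450 in edgeR). The value was -0.37 without male NT-KO replicate 2 and -1.52 without replicate 1. In females it was 0.36 (95% interval -0.50 to 1.22, FDR 1) and the difference between the sexes was 1.19 (FDR 0.688 in edgeR). With no filter on low counts, Cyp7a1, Cyp7b1 and Nr0b2 were all called in males, and the same 3 in the difference between the sexes, beside 3.09% and 1.86% of the 29724 genes then tested. For Cyp7a1 and Cyp7b1 in males that setting gave the lowest FDR, 0.000305 and 0.0245, and the highest over the alternatives were 0.694 and 0.806. Cyp27a1, the mitochondrial sterol 27-hydroxylase (ENSMUSG00000026170, chr1:74713574-74737892), was at 554 and 487 CPM in WT males, 678 and 472 CPM in NT-KO males, 502 and 482 CPM in WT females, and 517 and 481 CPM in NT-KO females. Its female pairs were closer together than its male pairs, and its log2 fold changes were 0.14 in males (95% interval -0.35 to 0.64) and 0.02 in females (95% interval -0.47 to 0.51).

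The male NT-KO pair thus did not carry 1 pattern. Replicate 2 held the highest Cyp7a1 and Cyp8b1 and the lowest male Cyp7b1, whereas replicate 1 held the highest Nr0b2 of all libraries with Cyp7a1 at 152 CPM. Among the members, replicates of this group differed by up to 1.25 on the log2 scale, against 0.63 to 0.83 in the other groups.

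The genotype values of the transporters and Baat were not called, and ran up to 0.34 on the log2 scale, for Abcb11 in males and Slc10a1 in females. Abcb11, the bile salt export pump (ENSMUSG00000027048, chr2:69238282-69342616), was at 327 and 260 CPM in WT males, 330.3 and 412 CPM in NT-KO males, 243 and 431 CPM in WT females, and 323 and 379 CPM in NT-KO females. Its female WT pair spanned all other libraries, and the log2 fold change was 0.34 in males (95% interval -0.32 to 1.00, FDR 0.695 in edgeR) and 0.06 in females. Of its exon sequence, 3.01% overlaps the opposite-strand genes Gm13613 and Gm13614, and the strand setting of the counting was not given. Slc10a1, the sodium-dependent uptake carrier (ENSMUSG00000021135, chr12:80953183-80968705), was at 723 and 599 CPM in WT males, 587 and 817 CPM in NT-KO males, 739 and 803 CPM in WT females, and 910.3 and 1047 CPM in NT-KO females. It was the 1 member higher without overlap in female NT-KO, at a log2 fold change of 0.34 (95% interval -0.17 to 0.85, FDR 1 in edgeR), and 0.09 in males. The genotype values of Abcb4 were 0.14 in males and 0.23 in females, and those of Baat were -0.08 (95% interval -0.50 to 0.34) and 0.15. Of the 50-base stretches of Abcb4, 2.87% occur in other genes, mostly Abcb1a, against 0.957% for Slc10a1, 1.68% for Abcb11 and 0% for the other 7 members.

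**Figure D3:**
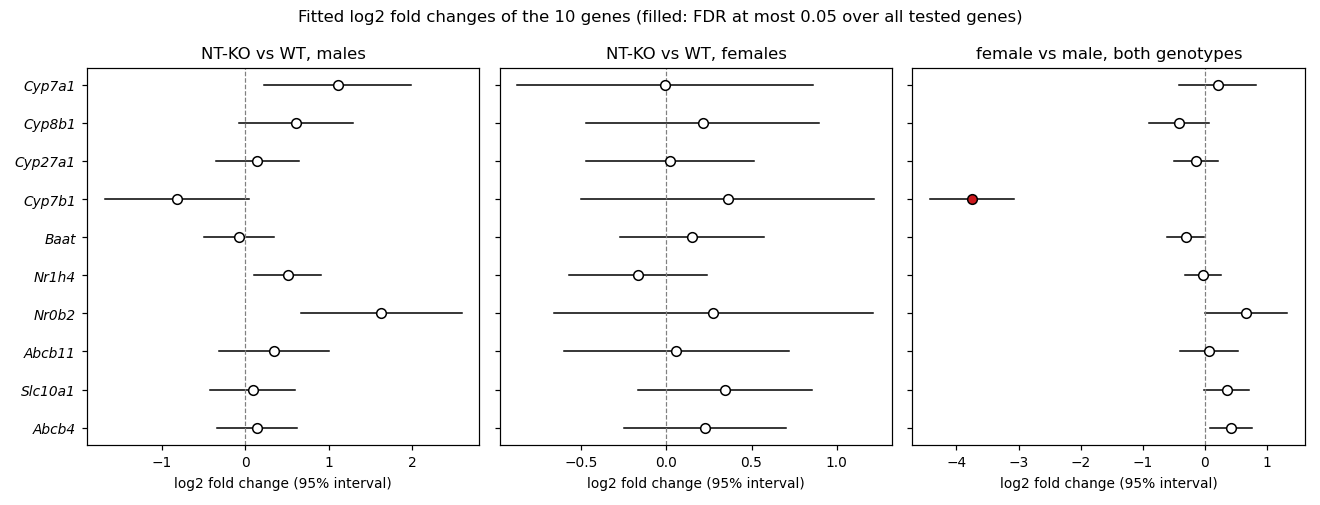
Fitted log2 fold changes (horizontal axes, each panel with its own range) of the 10 genes with 95% intervals, for the genotypes of each sex and for females against males, filled where the FDR is at most 0.05. Only Cyp7b1 in the sex comparison, at -3.74, is filled.

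Levels of clock genes are given beside the male comparison. Arntl, the activator BMAL1, was at 4.16 and 4.11 CPM in WT males, 1.91 and 1.33 CPM in NT-KO males, 0.62 and 0.54 CPM in WT females, and 1.53 and 0.67 CPM in NT-KO females. Dbp, a clock output factor, was at 28.4 and 30.8 CPM in WT males and 64.8 and 50.3 CPM in NT-KO males, with 43.6 to 69.8 CPM in females. For Arntl and Dbp male WT thus stood apart from the other groups, as it did for Nr1d1 and Nr0b2. Male WT overlapped the females for Per2, at 60.9 and 95.4 CPM against 53.2 to 86.0 CPM. It also did for Ciart, at 18.1 and 26.9 CPM against 23.9 to 50.1 CPM. The male log2 fold changes were -1.35 for Arntl (FDR 0.274) and 0.96 for Dbp (FDR 0.228) in edgeR, 0.89 for Nr1d1, -0.44 for Per2 and 0.59 for Ciart, the last 3 being clock repressors. Of 17 listed clock genes 16 were tested, and 0 were called between genotypes in either sex in edgeR's quasi-likelihood test. At an unadjusted p under 0.05, 4 were higher and 3 lower in males and 0 in females, beside 11.5% and 1.55% of all genes. In males 6 were higher and 5 lower without overlap, where 19.6% and 19.2% of all genes were. Between the sexes, 1 clock gene was called higher and 2 lower in females over both genotypes. Within WT 2 were called higher and 3 lower, and within NT-KO 0 were called. Of all genes 7.84%, 6.44% and 1.86% were called in these comparisons. The labels give no hour of collection. The part of collection time in the values of Nr0b2, Cyp7a1 and Cyp7b1, or in any difference between the sexes given here, was not tested.

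**Figure D4:**
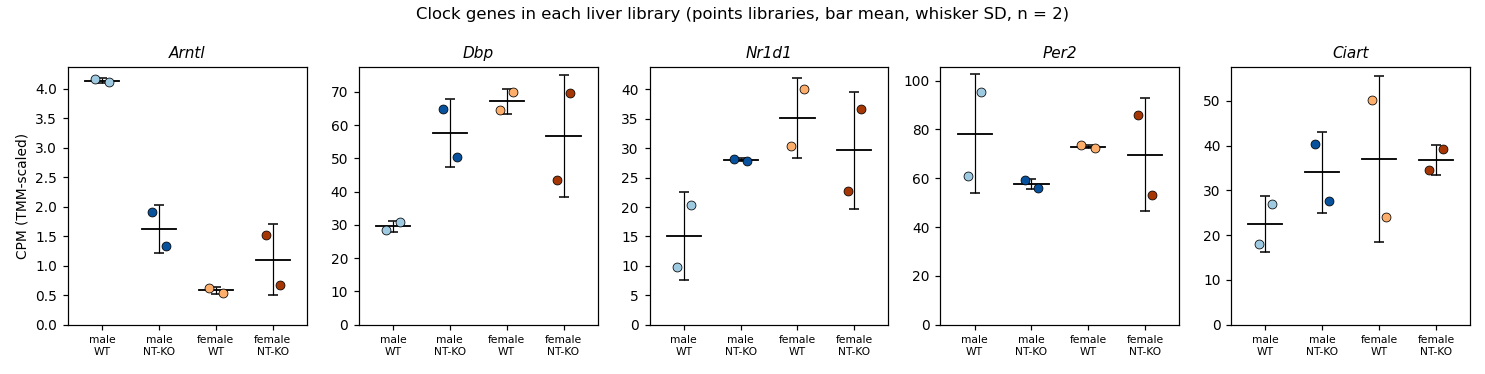
CPM (vertical axis, from 0) of 5 clock genes in each library of the 4 groups, where points are libraries, bars the mean and whiskers the SD of 2. Arntl is highest in the male WT pair, at 4.16 and 4.11 CPM, and Dbp is lowest there.

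Markers of other cells varied too. The summed level of 7 cholangiocyte markers, 5 of them tested, was 41.7 to 49.4 CPM in WT males, 27.4 to 33.5 in NT-KO males, 42.7 to 51.1 in WT females and 35.4 to 60.8 in NT-KO females. Most of that sum was Spp1, with means of 40.1 and 24.0 CPM in WT and NT-KO males, whereas the means of Krt7, Krt19, Sox9 and Epcam were not lower in NT-KO males. The 6 B lymphocyte markers summed to 5.59 to 7.13 CPM in WT males and 14.8 to 57.3 CPM in NT-KO males, against 22.7 to 22.9 and 8.83 to 12.7 CPM in WT and NT-KO females. Kupffer cell markers (6) spanned 124 to 199 and 165 to 222 CPM in WT and NT-KO males and 235 to 279 CPM over the females, and endothelial markers (6) spanned 106 to 155, 148 to 160 and 168 to 192 CPM in the same order. Stellate cell markers (6) summed to 259 to 337 CPM in WT males and 332 to 415 CPM elsewhere. Erythroid markers (5) were at 445 to 947 CPM in WT males, 370.2 to 372 CPM in NT-KO males and 170.4 to 320.3 CPM in females. Of 6 pancreas acinar markers Prss2, Pnlip and Amy2a5 were at 0 in every library, and the list summed to 28.0 to 38.6 CPM in WT males, 34.3 to 37.3 CPM in NT-KO males and 13.8 to 20.9 CPM in females, nearly all of it Cela1. Of 6 intestine markers Alpi was at 0 in every library. Intestine markers summed to 96.1 to 101 CPM in WT males, 136 to 197 CPM in NT-KO males and 209 to 380 CPM in females, largely from Apoa4 and Fabp2, which hepatocytes also make. The part of these cell types in the members' values was not tested.

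Around the members, 49 further genes of the pathway were listed, and 44 of them were tested (all but Ch25h, Hsd3b7, Fgf15, Gpbar1 and Slc51a). Between the sexes 5 were called higher and 5 lower in females in edgeR's quasi-likelihood test, beside the 4.12% and 3.72% of all genes given above. By role these were 1 higher and 2 lower of 14 synthesis genes, 2 and 2 of 14 transport genes, 2 and 1 of 4 detoxication genes, and 0 of 12 regulators. Of the 5 higher, Slc51b, Sult2a1 and Sult2a2 were under 1 CPM in every male library and passed the filter on low counts only through the females. Being higher in females was thus a condition of testing them, and their calls are not read as a result. The other higher calls were Cyp46a1 and Slco1a4. The 10 calls became 19 in edgeR's likelihood ratio test and 20 in DESeq2, which called 13.4% and 14.1% of all genes, 4 when the NT-KO groups alone were compared, and 6 when female NT-KO replicate 1 was left out. Among the synthesis genes, Scp2, whose longer product is the thiolase that shortens the side chain, was at 2912 to 4319 CPM in males and 1607 to 1848 CPM in females (log2 fold change -1.15, SE 0.16, FDR 0.00478). Cyp2c70, which makes the muricholic acids of rodents, was lower in females, at 407 to 653 CPM (-0.77, SE 0.18, FDR 0.0409). The difference was -1.41 (FDR 0.0242) within WT and -0.12 (FDR 0.950) within NT-KO in edgeR, where the sexes overlapped. Its male values of 1325 and 1404 CPM in WT and 804 and 573 CPM in NT-KO did not overlap (-0.99, FDR 0.243). Cyp46a1, the cholesterol 24-hydroxylase, was higher in females (1.26, SE 0.21, FDR 0.0112), by 1.81 (FDR 0.0185) within WT and 0.71 (FDR 0.473) within NT-KO in edgeR.

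Among the transport genes, the flippase Atp8b1 fell by 0.83 on the log2 scale in females against males (SE 0.13, FDR 0.00795) and its partner Tmem30a by 0.64 (SE 0.13, FDR 0.0251) in edgeR. These 2 gene products form 1 complex at the canalicular membrane, and no female library reached the lowest male library for either gene. The uptake carrier Slco1a4 was higher in females by 1.05 (SE 0.25, FDR 0.0418). Slc51b, a subunit of the basolateral exporter, was higher by 1.73 (SE 0.31), from levels of 0.30 to 0.71 CPM in males and 0.80 to 1.76 CPM in females, among the lowest that were tested. Its level in females brought it into the test, so no FDR is given. Among the detoxication genes, the sulfotransferase Sult2a8 was lower in females (log2 fold change -1.26, SE 0.16, FDR 0.00270). Its relatives Sult2a1 and Sult2a2 had 1 to 24 and 0 to 11 counts in male libraries and 5592 to 22949 and 3245 to 11634 counts in females. They too entered the test only through the females. These paralogs are nearly identical, so the split of reads between them is uncertain.

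Between NT-KO and WT, 0 of the 44 genes were called in either sex. At an unadjusted p under 0.05 there were 7 higher and 2 lower in males and 0 in females, beside 11.5% and 1.55% of all genes. edgeR's likelihood ratio test called 1 in males and DESeq2 2, beside 1.94% and 2.35% of all genes. Neither called any in females. The rule for named genes also took Sult2a1 and Sult2a2 in males, where they had 24 counts at most and no fold is given. Of the other genes Cyp46a1 had the largest male value, and it was at 2.61 and 2.12 CPM in WT and 8.63 and 5.20 CPM in NT-KO (log2 fold change 1.54, FDR 0.167). In females the largest were those of the uptake carrier Slco1a1 (0.90), Slc51b (0.67) and Cyp46a1 (0.44), each with an FDR of 1 in edgeR. The median log2 fold change of the 44 was 0.07 in both sexes, and 0.09 in males without Sult2a1 and Sult2a2.

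**Figure D5:**
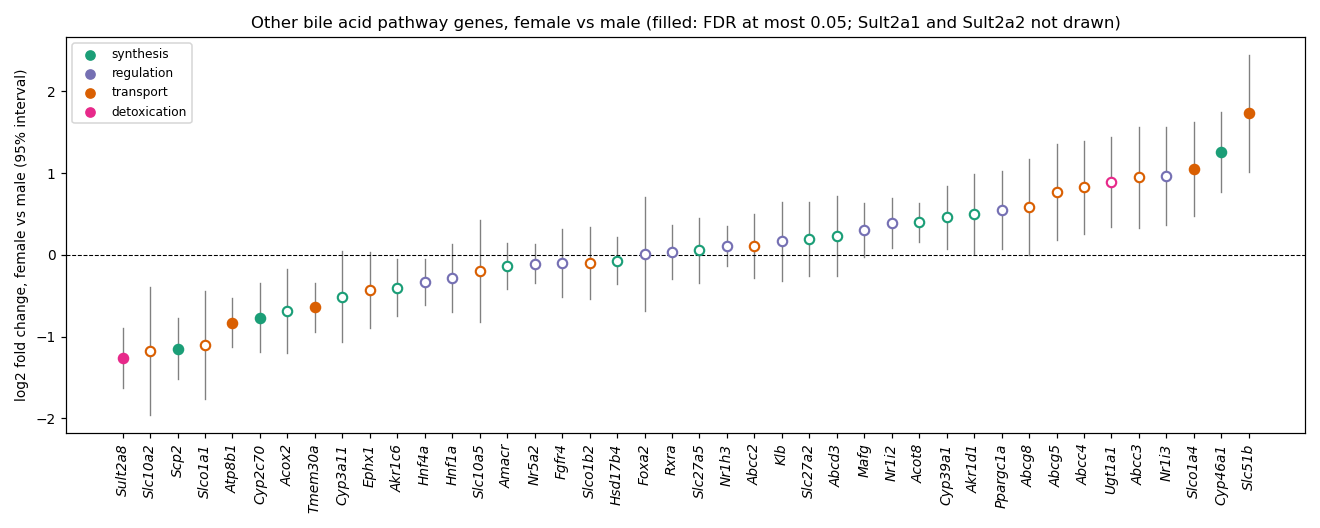
Log2 fold change of females against males (vertical axis) with 95% intervals for 42 further bile acid genes, coloured by role and filled where the FDR is at most 0.05, without Sult2a1 and Sult2a2. Filled points run from Sult2a8 at -1.26 to Slc51b at 1.73, and no regulator is filled. Slc51b entered the test only through its female libraries.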

How the data were processed

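Livers were flash-frozen, RNA was extracted with Trizol and libraries were made from total RNA with the TruSeq RNA kit. According to the methods and the submitters' processing notes, the authors checked reads with FastQC, trimmed them with cutadapt, aligned them to GRCm38 with STAR 2.6.1a and counted them per gene with featureCounts. They deposited raw counts per gene. The strand setting and the treatment of reads with several positions were not given in the sources used here.

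Identifiers were named from GENCODE on GRCm38 (49412 matched, 259 not). rRNA, miRNA and mitochondrial genes were removed, and genes reaching 1 CPM in 2 or more libraries were kept. Libraries were TMM-scaled and fitted together as 4 group means with edgeR 4.0.16 in R 4.3.3 (quasi-likelihood F-test, limma 3.58.1 underneath). Fold changes used edgeR's default prior count, and a prior count of 2 was used only for log2 CPM values. Benjamini-Hochberg FDR was taken over all 13117 genes. Intervals are the estimate ± the t quantile times its SE. The tested genes held 91.8 to 92.9% of counts, and 3 counts equal 0.0466 to 0.0666 CPM. The common biological coefficient of variation was 0.217. Replicates differed by far more than sampling noise (chi-square divided by its degrees of freedom, 112.4 to 278.4), and r between them, across genes, was 0.969 to 0.983. On simulated counts the fit was tested with 200 changed genes.

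The named genes were all 10 members, the called genes of the further pathway list (10 at most, by FDR) with the 3 largest changes in each sex, Lbr, and 5 clock genes. Members and lists were chosen with earlier results of these data known. Alternatives were a likelihood ratio test, DESeq2 1.42.0, RLE or library-size scaling, other filters, a replicate block, robust dispersion, 1 sex alone and each library left out. The contrasts between sexes within WT and within NT-KO were added after seeing the data. Promoter windows were RefSeq's, from 250 bases before to 50 after the start.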

Additional observations from a re-analysis of the deposited data

Results flagged for a closer look

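Nr1h4 drew attention because NT-KO vs WT went opposite ways in the sexes: both NT-KO libraries were above both WT libraries in males and below them in females. The log2 difference between the sexes was -0.67 (SE 0.25, 95% interval -1.24 to -0.10, FDR 0.656 in edgeR's quasi-likelihood test), so the test of the difference did not pass over all genes. The same pattern of libraries was present in 3.75% of all tested genes. Over the alternatives the difference ran from -0.82 to -0.55 with an FDR of 0.341 to 0.998.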

How the results depend on the processing

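Of 840 fold changes of the members recomputed under alternatives, 790 kept their direction and their side of the threshold, 12 newly passed it, 0 lost it and 38 changed sign. With the settings used above only the sex difference of Cyp7b1 was called, so the other values had no call to lose. The sex difference of Cyp7b1 was called under every alternative that kept all 8 libraries. With a library left out it ran from -3.98 to -3.40. Within WT and within NT-KO, which are contrasts of another kind, it was -4.34 and -3.15. The counts of members called moved as follows. In males 1 was called by the likelihood ratio test, 1 by DESeq2 and 3 with no filter on low counts, a setting that also called 1 over both sexes and 3 in the difference between the sexes. For females vs males 2 were called with library size only (Abcb4, log2 0.54) and 2 with no filter (Nr0b2), and leaving out a library gave 1 to 2. The second was Nr0b2 at 1.03 without male NT-KO replicate 1. Its FDR over the alternatives ran from 0.000513, with no filter, to 0.996, in NT-KO alone, a contrast of another kind. Of the further pathway genes, 19 were called between the sexes by the likelihood ratio test, 20 by DESeq2, 22 with no filter, 4 among NT-KO libraries alone and 6 to 14 with a library left out, the 6 being without female NT-KO replicate 1. The likelihood ratio test, DESeq2, no filter and NT-KO alone called 13.4%, 14.1%, 9.16% and 1.86% of all genes between the sexes. In males the likelihood ratio test, DESeq2 and no filter called 1, 2 and 8 further pathway genes, beside 1.94%, 2.35% and 3.09% of all. Over both sexes they called 1, 1 and 5, beside 0.389%, 0.473% and 1.5%. No filter called 1 in females and 5 in the difference between the sexes, beside 0.653% and 1.86%. Over all genes in males, 254 were called by the likelihood ratio test, 308 by DESeq2 and 917 of 29724 with no filter, against 2. The cause was not tested.

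Some signs changed. With library size only, which put the median of all genes at 0.12 between the sexes and -0.10 in the difference, they were -0.0092 for Abcb4 in the difference, -0.0032 for Cyp27a1 in females and 0.10 for Nr1h4 between the sexes. Between the sexes Nr1h4 was 0.30 in WT alone, and in NT-KO alone Abcb11 was -0.0814, Cyp7a1 -0.35 and Nr0b2 -0.0159. Leaving out a library, the ranges that crossed 0 were as follows. In males Abcb4 ran from -0.0445 to 0.35, Baat from -0.15 to 0.0019, Cyp27a1 from -0.14 to 0.38 and Slc10a1 from -0.18 to 0.30. In females Abcb11 ran from -0.30 to 0.53, Cyp27a1 from -0.0326 to 0.0706, Cyp7a1 from -0.30 to 0.36, Cyp8b1 from -0.0001 to 0.43 and Nr0b2 from -0.0057 to 0.51. Over both sexes Baat ran from -0.0334 to 0.11 and Cyp27a1 from -0.061 to 0.20. In the difference Abcb11 ran from -0.64 to 0.19, Abcb4 from -0.13 to 0.27, Cyp27a1 from -0.35 to 0.16 and Cyp8b1 from -0.76 to 0.11. Between the sexes Abcb11 ran from -0.18 to 0.24, Cyp7a1 from -0.0449 to 0.58 and Nr1h4 from -0.0970 to 0.0378.

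Replicate numbers did not pair the samples: deviations of same-numbered samples correlated at -0.181 to 0.209. With the replicate number as a block, 0 members were called between genotypes and 1 between the sexes, and Cyp7a1 in females was 0.0442. With 2 libraries a group, intervals for the genotype values stayed wide, for example -0.88 to 0.86 for Cyp7a1 in females.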
